A study of Homo sapiens with 4 samples.

Results

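The genes described here are the long noncoding RNAs MALAT1 and NEAT1 and the protein genes NONO, SFPQ, PSPC1, HNRNPK and RBM14, whose products build or occupy the nuclear bodies called paraspeckles and speckles. They were chosen by name: every transcript with an Ensembl identifier that maps to one of these 7 symbols was taken from all 4 expression files, singly and summed per gene. The 7 genes are 7 of 51080 gene symbols in the files, of which 27332 were above 0 in a library. They cover 51 transcript rows, and 16 of those rows were above 0 in at least 1 library.

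RNA was sequenced from senescent WI-38 cells at population doubling level 60 and from young WI-38 cells at level 21, in mitoplasts and in whole cells of each. WI-38 is a human fibroblast line from fetal lung with a limited division span, so that late passages serve as a model of replicative senescence. Mitoplasts are mitochondria without their outer membrane; here they came from a detergent lysate cleared of nuclei by centrifugation and were digested with RNase A before and after pelleting, and only these libraries had that treatment. Each of the 4 groups (senescent mitoplasts, young mitoplasts, senescent whole cells, young whole cells) is 1 library, and none of the differences given here has a replicate, an error or a test, so a library cannot be told apart from its condition.

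Paraspeckles are nuclear bodies that assemble on NEAT1, whose long isoform is the architectural scaffold and whose short isoform alone does not build them. NONO, SFPQ and PSPC1 form the DBHS family of dimerising RNA-binding proteins that coat NEAT1, HNRNPK favours the long isoform by hindering 3′ end processing of the short one, and RBM14 is needed for the bodies to assemble. MALAT1 is a neighbour of NEAT1 on chromosome 11, is retained in the nucleus and concentrates in speckles, bodies rich in splicing factors.

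The authors deposited FPKM, a read density scaled to transcript length and to the mapped reads of a library. FPKM is already per length, so levels of different genes may be set side by side where they rest on like transcript models. Some levels below rest on short models, such as the 480 nt MALAT1-203, which limits ranks and orders of genes. Depth is unknown, since FPKM carries no counts, and in bulk RNA fewer cells of a type and less RNA per cell cannot be told apart. The whole cell libraries matched their labels: all 10 fibroblast markers were at 1 FPKM or more, and MKI67, a proliferation marker, was at 0.264 FPKM in senescent and 12.1 FPKM in young whole cells. Fibroblast markers at 1 FPKM or more numbered 8 in senescent and 9 in young mitoplasts. Epithelial markers summed to between 22.7 and 26.6 FPKM in every library, endothelial markers reached 23.3 FPKM in senescent mitoplasts, and blood markers 12.6 FPKM in young mitoplasts; their part in the values below was not tested. The fraction label was less even: all 13 mitochondrial mRNAs were at 1 FPKM or more in the young libraries, but 12 had an exact 0 in senescent mitoplasts and 11 in senescent whole cells. They summed to 593653 FPKM in young mitoplasts against 170329 FPKM in young whole cells. In senescent cells the sums were close, at 29903 FPKM in mitoplasts and 27848 FPKM in whole cells, so this marker hardly set the senescent fractions apart. An exact 0 in these files can be a failed or reassigned estimate. Of 4568 genes at 10 FPKM or more in both whole cell libraries, 23.9% stood at 0 in senescent and 9.96% in young mitoplasts. Unnamed transcripts assembled from the reads held 97.3% of the summed FPKM in senescent mitoplasts, 92.7% in young mitoplasts, 76.2% in senescent whole cells and 53.7% in young whole cells.

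MALAT1 was measured through short transcript models, not through its full-length RNA. In GENCODE release 29, whose build is GRCh38, the gene spans chr11:65497688-65506516 on the plus strand, and the full-length model MALAT1-202 is a single exon of 8708 nt that is not analysed here. Both MALAT1 rows of the files, MALAT1-203 and MALAT1-201, lie wholly within its bases. MALAT1-203 (ENST00000544868) has 480 nt in 2 exons of 421 and 59 nt, which lie between 1355 and 3283 bases from the gene start. MALAT1-201 (ENST00000508832) has 1519 nt in 2 exons further downstream, from 4161 to 5922 bases. The sequences are shown because the unspliced full-length RNA holds these bases too, and only the joins are particular to the models; capitals mark the bases after the splice junction, 5′ to 3′, from the GENCODE 29 transcripts. MALAT1-203 is shown from base 361 to its last base, 480, and MALAT1-201 for 30 bases either side of its junction.
MALAT1-203: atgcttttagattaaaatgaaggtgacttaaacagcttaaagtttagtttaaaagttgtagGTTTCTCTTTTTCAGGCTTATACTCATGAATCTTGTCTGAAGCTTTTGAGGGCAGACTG
MALAT1-201: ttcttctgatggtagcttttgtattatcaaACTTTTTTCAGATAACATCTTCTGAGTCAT

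**Figure D1:**
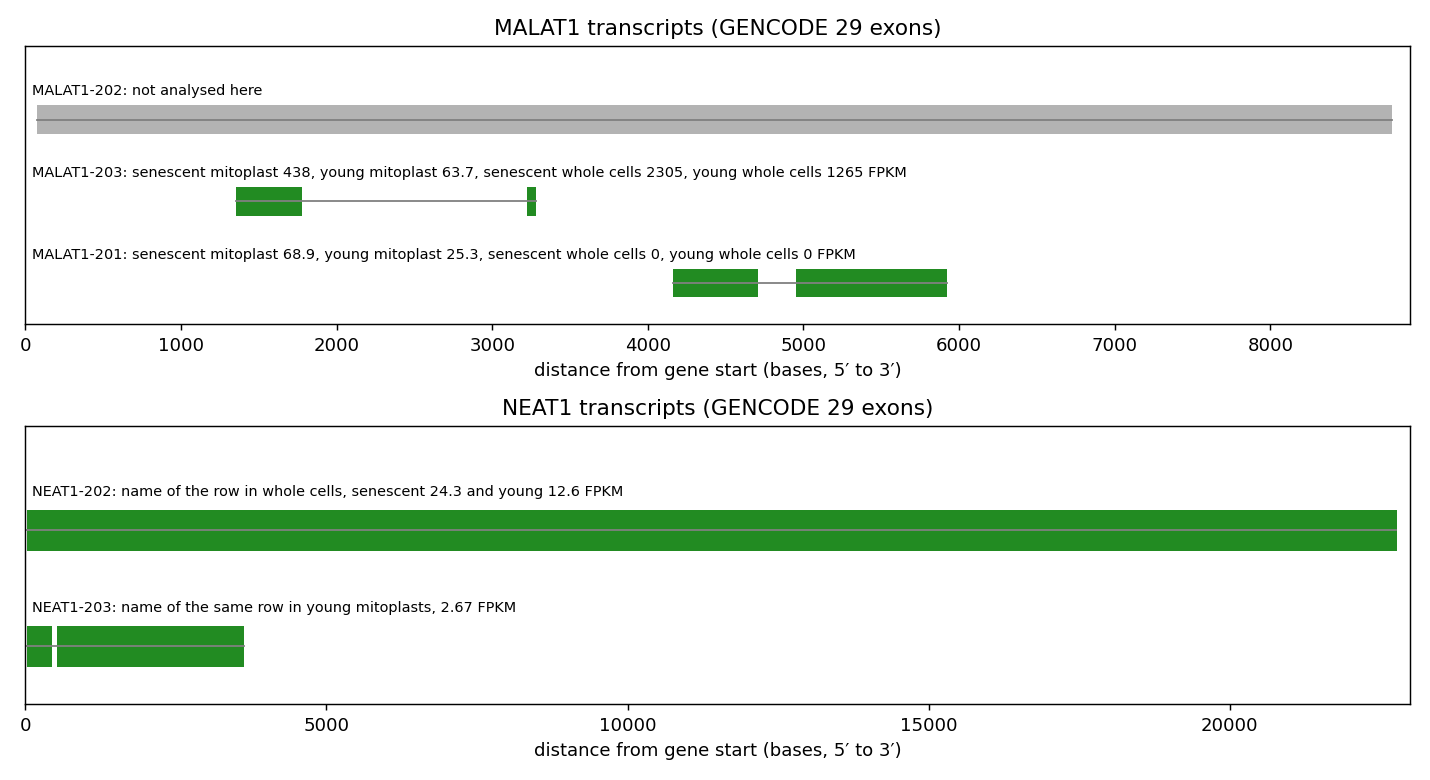
Exons of the MALAT1 and NEAT1 transcript models in bases from the gene start, drawn to scale from GENCODE 29, with thick bars for exons and thin lines for introns. Green models name rows of the files and carry their FPKM in each library; the grey full-length MALAT1-202 is not analysed here. The MALAT1 signal sits on 480 and 1519 nt of a gene whose full-length model has 8708 nt, and 1 NEAT1 row bears names of different length in different libraries.

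MALAT1 summed to 507 FPKM in senescent mitoplasts, 89.0 FPKM in young mitoplasts, 2305 FPKM in senescent whole cells and 1265 FPKM in young whole cells. It was above 0 in every library, highest in senescent whole cells, and higher in the senescent library of either fraction. Among the genes above 0 in a library it ranked 34 of 20907 in senescent and 84 of 21548 in young whole cells. In mitoplasts it ranked 50 of 9619 genes in the senescent library and 717 of 15522 in the young one.

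The senescent over young difference of MALAT1 was larger in mitoplasts than in whole cells. Each ratio was taken as log2((A + 1)/(B + 1)) on the FPKM scale, which makes differences of low genes look smaller, and a gene is counted as higher or lower at a log2 ratio of 1 or −1 and beyond. In mitoplasts the ratio was 2.50, or 5.69 times the young value, above that of 90.0% of genes and 3.77 above the median nuclear-encoded gene. It was 4.0 and 3.36 with libraries scaled as described next, and 1.41 with transcripts of 600 nt or more. In whole cells the ratio was 0.87, or 1.82 times the young value, above that of 80.4% of genes; it was 1.14 with libraries scaled to an equal sum of FPKM over all named genes and 1.05 with libraries scaled by the median of gene ratios, so that its side of the threshold depends on the scaling.

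MALAT1 was lower in mitoplasts than in whole cells, with log2 ratios of −2.18 in senescent and −3.81 in young cells, which left 0.220 and 0.0704 of the whole cell value. Only 6.18% of genes had a lower young ratio, and it differed from the median nuclear-encoded gene by −3.35. The senescent ratio differed from its own median by −0.70, and 33.8% of genes had a lower ratio. It was −1.62 with an equal sum and −1.03 with the median of ratios, close to the threshold. The 2 rows differed in where they were found. MALAT1-203 held all of the whole cell signal and was at 438 FPKM in senescent and 63.7 FPKM in young mitoplasts. MALAT1-201 was at 68.9 FPKM in senescent and 25.3 FPKM in young mitoplasts, where the files give the row an assembled name of their own, and was listed at 0 in both whole cell libraries. With transcripts of 600 nt or more alone, MALAT1 therefore rests on MALAT1-201, and the mitoplast over whole cell ratio turned to 6.13 in senescent and 4.72 in young cells, against libraries listed at 0.

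**Figure D2:**
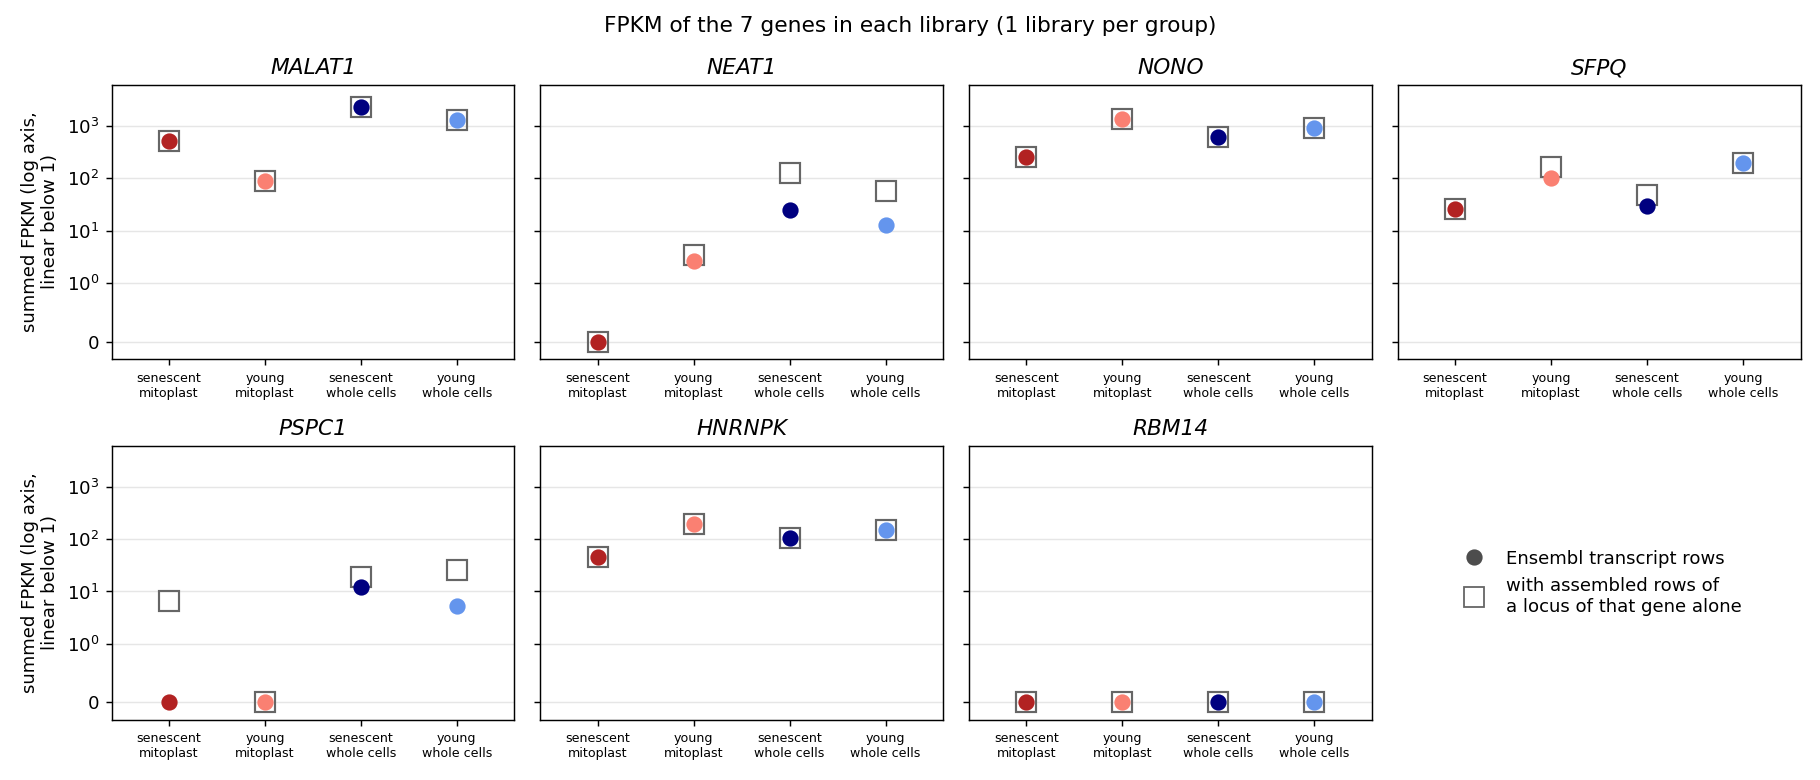
Summed FPKM of each of the 7 genes in each library, on a log axis that is linear below 1; filled circles are the Ensembl rows and open squares add assembled rows of a locus that holds the gene alone. Each point is 1 library, so there are no error bars. MALAT1 is at 507, 89.0, 2305 and 1265 FPKM in the order drawn, the squares lie above the circles for NEAT1 in whole cells (128 and 56.9 FPKM against 24.3 and 12.6 FPKM, senescent and young), and RBM14 is at 0 throughout.

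NEAT1, the paraspeckle scaffold, was low beside MALAT1 and had a single row, whose name changed between libraries. The row is the long NEAT1-202 (22743 nt) in whole cells, the short NEAT1-203 (3524 nt, all within NEAT1-202) in young mitoplasts, and the microRNA gene MIR612, which starts 21685 bases from the NEAT1 start, in senescent mitoplasts. NEAT1 spans chr11:65422774-65445540 (GRCh38), and its end lies 52147 bases before the start of MALAT1. The row was listed at 0 in senescent mitoplasts and was at 2.67 FPKM in young mitoplasts, 24.3 FPKM in senescent whole cells and 12.6 FPKM in young whole cells. Senescent whole cells were thus highest, with a log2 ratio of 0.90 over young whole cells, above that of 81.0% of genes.

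Most of the NEAT1 signal in whole cells was in an assembled transcript of the same locus. It was at 103 FPKM in senescent and 44.3 FPKM in young whole cells and listed at 0 in both mitoplast libraries. Another assembled row of the locus was at 14.7 FPKM in senescent and 0.715 FPKM in young mitoplasts and listed at 0 in whole cells; in the senescent library it was left out of the sum because MIR612, which lies within NEAT1, shares the locus. Counted so, NEAT1 came to 0 FPKM in senescent mitoplasts, 3.38 FPKM in young mitoplasts, 128 FPKM in senescent whole cells and 56.9 FPKM in young whole cells. The senescent over young whole cell ratio was then 1.15, past the threshold, as it was at 1.16 and 1.05 under the equal sum and the median-of-ratios scaling. The ratio of young mitoplasts over young whole cells was −1.89 on the Ensembl row and −3.72 with assembled rows; the lengths behind the FPKM of the Ensembl row differ between those libraries. On the Ensembl row the senescent mitoplast ratios were −1.87 over young mitoplasts and −4.66 over senescent whole cells. Senescent mitoplasts are listed at 0 there, so the size of both ratios depends on the 1 FPKM added to each value. With the row of 14.7 FPKM, senescent mitoplasts would stand above the 3.38 FPKM of young mitoplasts. MALAT1 had 94.7 times the NEAT1 FPKM in senescent and 100.2 times in young whole cells on Ensembl rows, and 18.0 and 22.2 times with assembled rows. The Ensembl quotients set unlike models side by side, the 480 nt MALAT1-203 and the 22743 nt NEAT1-202.

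NONO, the most abundant of the 3 DBHS proteins at the RNA level here, was read mostly through a short transcript outside its coding bases. It summed to 252 FPKM in senescent mitoplasts, 1336 FPKM in young mitoplasts, 619 FPKM in senescent whole cells and 923 FPKM in young whole cells. The senescent mitoplast library was lowest and the young mitoplast library highest. NONO-210, a processed transcript of 397 nt, was at 194, 1169, 480.1 and 742 FPKM in the same libraries, between 76.9% and 87.5% of the gene. All 397 of its bases are untranslated bases of the coding model NONO-201, and 0 are coding. Of the coding transcripts, NONO-205 was at 102 FPKM in young mitoplasts, 79.1 FPKM in senescent whole cells and 115 FPKM in young whole cells, and NONO-204 at 65.7, 59.6 and 66.5 FPKM. Both were listed at 0 in senescent mitoplasts, where NONO-207 stood at 58.3 FPKM and in no other library.

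NONO was lower in senescent than in young mitoplasts, with a log2 ratio of −2.40, or 0.189 of the young value; with an equal sum of named FPKM the ratio was −0.89. In whole cells the ratio was −0.58, within the threshold. The mitoplast over whole cell ratio lay on opposite sides of 0, at −1.29 in senescent cells and 0.53 in young cells; the young ratio was −0.14 with an equal sum, 1.01 with the median of ratios and −0.11 with coding transcripts alone, and the senescent ratio was −0.73 with an equal sum and −0.14 with the median of ratios.

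SFPQ, the NONO partner also known as PSF, was the member with the largest whole cell difference. It summed to 26.0 FPKM in senescent mitoplasts, 103 FPKM in young mitoplasts, 30.0 FPKM in senescent whole cells and 199 FPKM in young whole cells. Both senescent libraries were below both young libraries. The log2 ratio was −2.69 in whole cells, or 0.151 of the young value, and 4.17% of genes had a lower ratio. In mitoplasts it was −1.94, or 0.253 of the young value, with 33.1% of genes lower still, and −0.46 with an equal sum. With assembled rows, which added 17.6 FPKM to senescent whole cells and 61.0 FPKM to young mitoplasts, the ratios were −2.04 in whole cells and −2.61 in mitoplasts. The −2.69 sets young whole cells, with 57.3 FPKM of the coding transcript SFPQ-201, against a library whose transcript set lacks it. The other transcript above 0, SFPQ-206, was at 30.0 FPKM in senescent and 141 FPKM in young whole cells.

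SFPQ was carried by a pair of transcripts in a near-constant proportion where both were listed. SFPQ-206 (874 nt), annotated as a target of nonsense-mediated decay, shares 648 coding bases with the coding transcript SFPQ-201 (3747 nt) and then splices to other exons. SFPQ-206 was at 18.4 FPKM in senescent mitoplasts, 71.1 FPKM in young mitoplasts, 30.0 FPKM in senescent whole cells and 141 FPKM in young whole cells. SFPQ-201 was at 7.62, 31.8 and 57.3 FPKM in senescent mitoplasts, young mitoplasts and young whole cells. SFPQ-201 is missing from the transcript set of the senescent whole cell library and so listed at 0 there. SFPQ-206 had 2.41, 2.23 and 2.47 times the FPKM of SFPQ-201 in the libraries that list both. The point at which the models part is given with 30 bases they share in lower case and the bases of the next exon of each in capitals, on the transcript strand.
SFPQ-201: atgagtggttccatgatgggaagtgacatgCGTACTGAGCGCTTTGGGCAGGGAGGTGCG
SFPQ-206: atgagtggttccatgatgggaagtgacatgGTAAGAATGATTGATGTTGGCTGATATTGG

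Mitoplast over whole cell ratios of SFPQ were −0.20 in senescent and −0.94 in young cells, neither past the threshold. The senescent ratio was 0.35 with an equal sum and 0.92 with the median of ratios, and the young one was −1.60 with an equal sum, so that the senescent direction depends on the scaling. The senescent whole cell value behind it leaves out SFPQ-201, and the ratio was −0.85 with assembled rows.

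PSPC1, the least abundant DBHS member, was listed at 0 in both mitoplast libraries and was at 12.0 FPKM in senescent and 5.37 FPKM in young whole cells. The log2 ratio of 1.03 was above the threshold, yet it came from 2 decay-annotated transcripts, PSPC1-203 at 2.86 FPKM and PSPC1-204 at 2.98 FPKM, that were above 0 only in senescent whole cells. The coding PSPC1-201 was at 6.19 FPKM in senescent and 5.37 FPKM in young whole cells, a ratio of 0.18. Assembled rows of the locus added 6.69 FPKM in senescent and 20.5 FPKM in young whole cells, and with them the ratio turned to −0.45. They also put PSPC1 at 6.59 FPKM in senescent mitoplasts, while in young mitoplasts the locus holds ZMYM5 as well and its assembled rows were given to neither gene. The direction for PSPC1 is therefore not settled by these files.

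**Figure D3:**
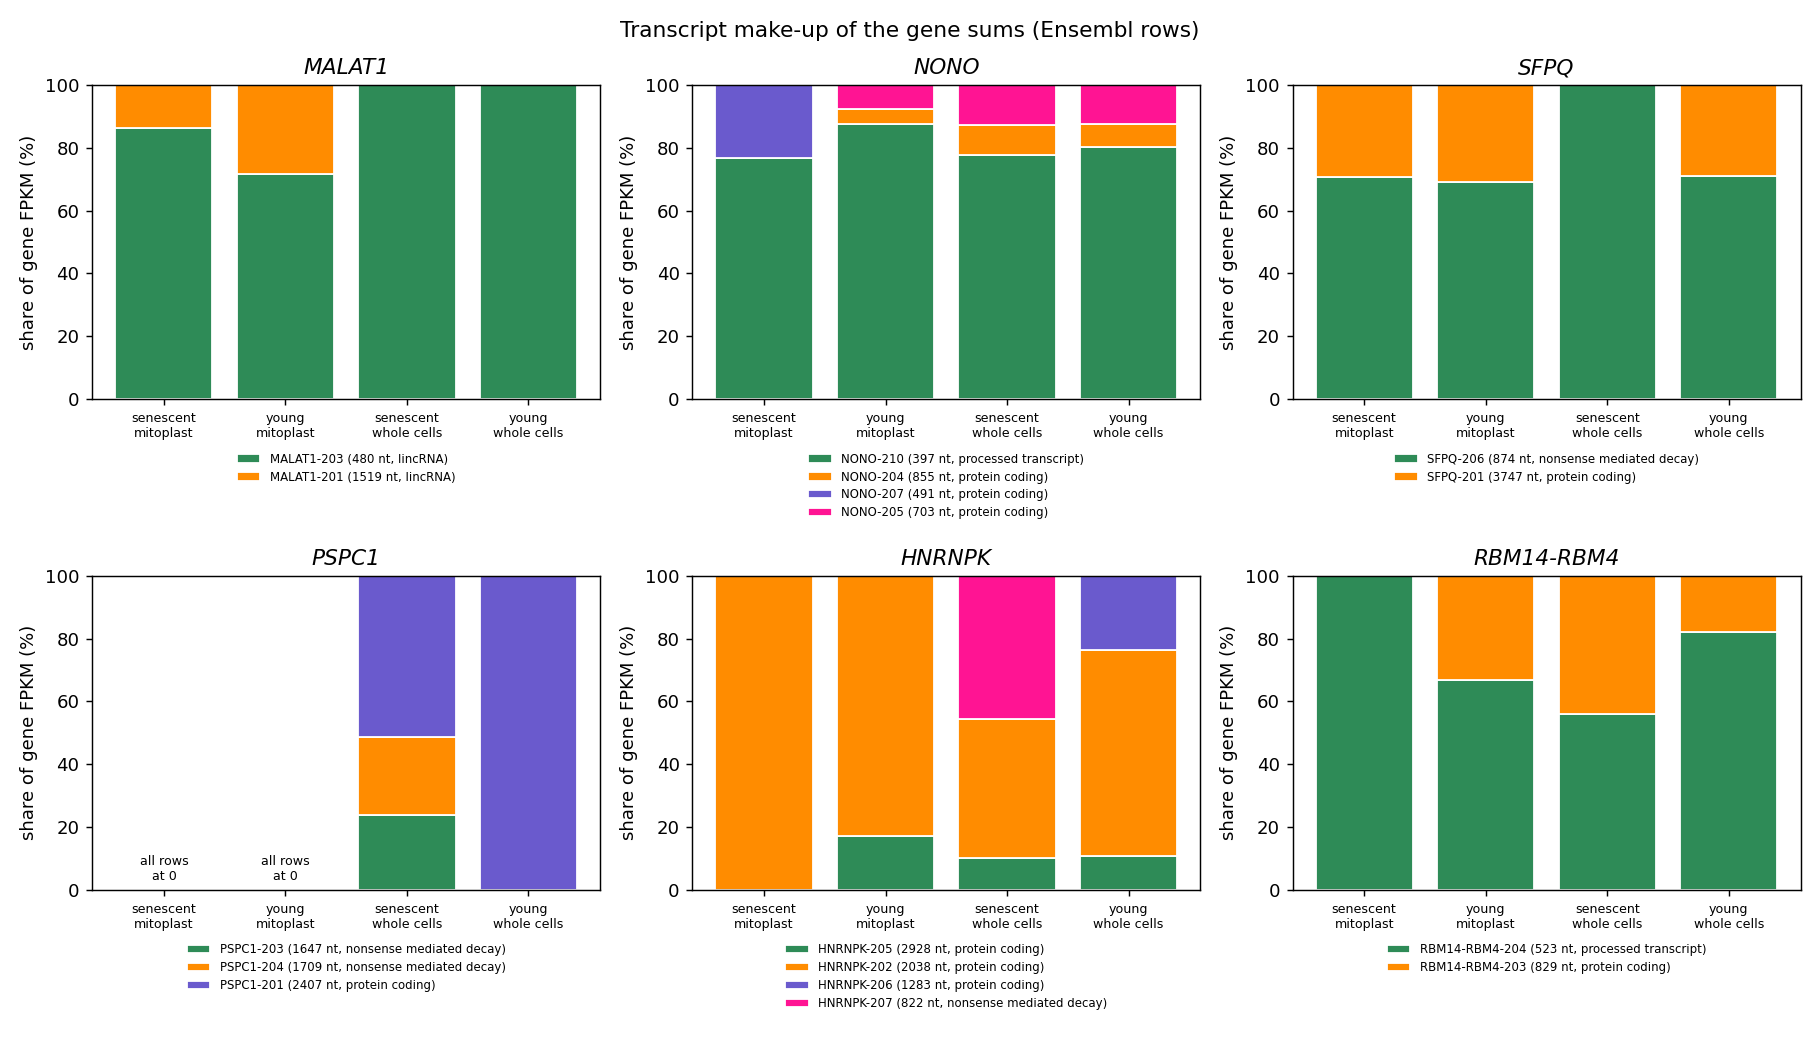
Share of each gene's summed FPKM held by each Ensembl transcript above 0, in percent, in each library; colours are transcripts, with length and GENCODE 29 type in the legend, and RBM14-RBM4 is drawn in place of RBM14, which is at 0. NONO-210 holds 76.9% to 87.5% of NONO, SFPQ-206 holds all of SFPQ in senescent whole cells, and the decay-annotated HNRNPK-207 appears in senescent whole cells alone.

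HNRNPK, an abundant RNA-binding protein that restrains the short NEAT1 isoform, was at 46.1 FPKM in senescent mitoplasts, 192 FPKM in young mitoplasts, 106 FPKM in senescent whole cells and 149 FPKM in young whole cells. The order of the libraries was that of NONO. Its log2 ratio in mitoplasts was −2.03, or 0.240 of the young value, and was −0.54 with an equal sum. In whole cells it was −0.48, within the threshold. The mitoplast over whole cell ratio was −1.19 in senescent and 0.36 in young cells; the young ratio was −0.30 with an equal sum and 0.84 with the median of ratios, and the senescent ratio was −0.63 with an equal sum and −0.05 with the median of ratios. HNRNPK divided by NONO stayed between 0.144 and 0.183 over the 4 libraries.

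The coding transcript HNRNPK-202 was at 46.1 FPKM in senescent mitoplasts, 159 FPKM in young mitoplasts, 47.1 FPKM in senescent whole cells and 97.8 FPKM in young whole cells. The decay-annotated HNRNPK-207 had 48.5 FPKM in senescent whole cells, and the coding HNRNPK-206 had 35.2 FPKM in young whole cells, each listed at 0 elsewhere. Over coding transcripts alone, the senescent over young whole cell ratio of HNRNPK was −1.35, past the threshold. Copies of the gene could share reads with it: the pseudogene HNRNPKP3 was at 12.1 FPKM in senescent mitoplasts and at 0.137 FPKM or below in the other libraries.

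RBM14, needed for paraspeckle assembly, was listed at 0 in all 4 libraries on all 9 of its rows. The locus was not silent: the readthrough gene RBM14-RBM4, which begins within the first exon of RBM14 and runs into RBM4, was at 83.0 FPKM in senescent mitoplasts, 132 FPKM in young mitoplasts, 142 FPKM in senescent whole cells and 269 FPKM in young whole cells. RBM14-RBM4-204, a processed transcript of 523 nt of which 428 are exon bases of RBM14-201, held 83.0, 88.1, 79.6 and 221.5 FPKM of these sums. RBM14-RBM4-203 was listed at 0 in senescent mitoplasts and had 43.5 FPKM in young mitoplasts, 62.4 FPKM in senescent whole cells and 47.9 FPKM in young whole cells. RBM4 itself was at 19.5 FPKM in senescent mitoplasts, 69.9 FPKM in young mitoplasts, 77.3 FPKM in senescent whole cells and 95.0 FPKM in young whole cells. How reads of the shared exon were divided between RBM14 and the readthrough rows cannot be read from FPKM, so the 0 does not show that RBM14 was absent. The junctions that set them apart follow, with 30 shared bases of the first exon in lower case and the next exon in capitals.
RBM14-201: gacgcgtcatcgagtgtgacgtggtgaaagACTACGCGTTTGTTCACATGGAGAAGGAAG
RBM14-RBM4-204: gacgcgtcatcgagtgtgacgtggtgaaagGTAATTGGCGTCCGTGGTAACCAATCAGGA

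In senescent against young mitoplasts, 1 of 5 members tested was higher (MALAT1), against 21.9% of 13851 genes, and 4 were lower (NONO, SFPQ, HNRNPK and NEAT1, which was listed at 0), against 57.7% of genes. The NEAT1 call rests on a row that bears the name MIR612 in senescent mitoplasts, and it would turn with the assembled row of 14.7 FPKM. The typical gene was lower there as well: the median over the members was −1.94 and over all genes −1.27. In senescent against young whole cells, 1 of 6 members was higher (PSPC1), against 17.3% of 14831 genes, and 1 was lower (SFPQ), against 21.2%. The all-gene median there was −0.13.

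Between fractions, 0 of 6 members were higher in mitoplasts than in whole cells. In senescent cells 5 were lower (MALAT1, NONO, HNRNPK, and NEAT1 and PSPC1 listed at 0), against 64.7% of 14807 genes, with 18.6% of genes higher. NONO and HNRNPK were within the threshold under both scalings. The 0 of NEAT1 belongs to a row named MIR612 in senescent mitoplasts and leaves out the assembled 14.7 FPKM. Assembled rows put PSPC1 at 6.59 FPKM there. In young cells 3 were lower (MALAT1, NEAT1, and PSPC1 listed at 0), against 40.1% of 15681 genes, with 23.1% higher. The 0 of PSPC1 in young mitoplasts leaves out 12.5 FPKM of assembled rows at a locus shared with ZMYM5. The all-gene medians were −1.48 in senescent and −0.46 in young cells. The equal-sum scaling put the all-gene medians at −0.06 for mitoplasts, 0.13 for whole cells, −1.35 for senescent fractions and −1.03 for young fractions; the median-of-ratios scaling put them at −0.92, 0.03, −1.08 and 0.05. With an equal sum, 37.1% of genes were higher and 42.0% lower in senescent than in young mitoplasts, and 21.5% and 17.0% in whole cells; between fractions 22.0% were higher and 60.5% lower in senescent cells, and 16.0% and 51.1% in young cells. With the median of ratios the splits were 29.6% and 49.3% in mitoplasts, 18.7% and 17.3% in whole cells, 27.6% and 52.2% between senescent fractions, and 29.4% and 32.5% between young fractions. The 13 mitochondrial mRNAs, which enter the equal sum, held 29903 FPKM in senescent and 593653 FPKM in young mitoplasts.

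**Figure D4:**
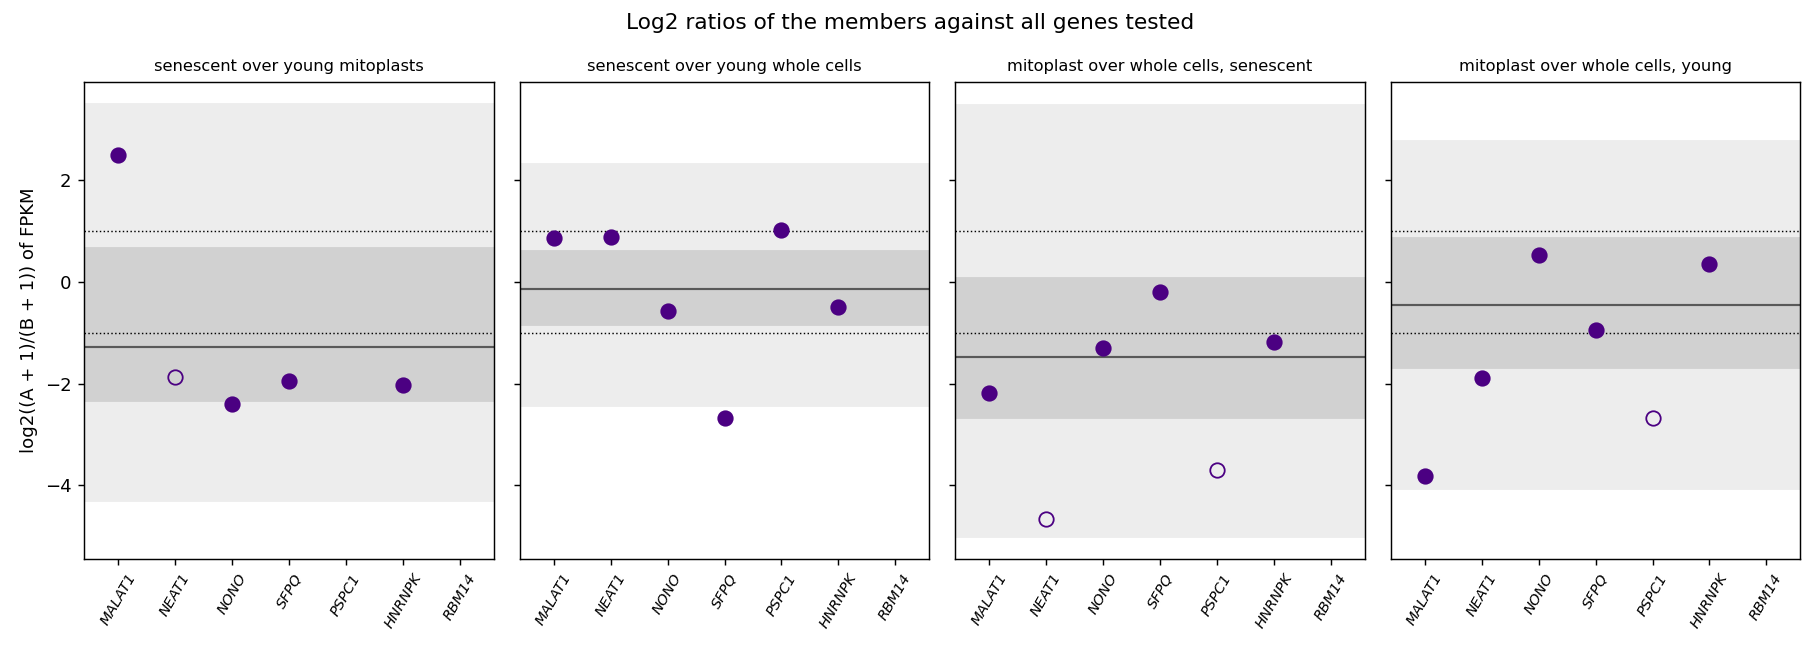
Log2 ratios of the members in each of the 4 comparisons, as deposited, over all genes tested: the line is the all-gene median, the dark band the span between the quartiles, the light band the range from percentile 5 to 95, and dotted lines the thresholds at 1 and −1. Open circles have a library listed at 0; members below 1 FPKM in both libraries are not drawn. MALAT1 lies above the dark band in mitoplasts at 2.50 and SFPQ below the light band in whole cells at −2.69. The SFPQ value rests on a senescent library whose transcript set lacks SFPQ-201, and was −2.04 with assembled rows. NONO and HNRNPK in young fractions, and SFPQ in senescent fractions, change sign with the scaling.

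The mitoplast over whole cell ratio differed between senescent and young cells in opposite directions for MALAT1 on one side and NONO and HNRNPK on the other. Senescent minus young, the difference was 1.63 for MALAT1, 0.74 for SFPQ, −1.55 for HNRNPK and −1.83 for NONO. Over 18275 genes the median difference was −0.74, with quartiles at −1.99 and 0.77. MALAT1 lay above the upper quartile, and SFPQ, HNRNPK and NONO lay between the quartiles. NEAT1, at −2.77, lay below the lower quartile, on a row named MIR612 and listed at 0 in senescent mitoplasts. PSPC1, listed at 0 in both mitoplast libraries, was at −1.03, between the quartiles. For MALAT1 the difference was 2.86 with an equal sum and 2.31 with the median of ratios. Under the same scalings it was −0.59 and −1.15 for NONO and −0.33 and −0.89 for HNRNPK. For SFPQ it was 1.96 and 1.39 under those scalings, and −0.57 with assembled rows. Each scaling multiplies all genes of a library by the same factor, so the differences of all genes move together. The all-gene median and quartiles of the difference were taken as deposited only. Places of the members among all genes under the scalings were not tested.

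In order of FPKM per library, on Ensembl rows alone, MALAT1 was above NONO in senescent mitoplasts and in both whole cell libraries, and below NONO, HNRNPK and SFPQ in young mitoplasts. HNRNPK followed NONO in every library but young whole cells, where SFPQ at 199 FPKM stood above HNRNPK at 149 FPKM. NEAT1 and PSPC1 were the lowest of the members above 0 in whole cells, NEAT1 at 24.3 and 12.6 FPKM and PSPC1 at 12.0 and 5.37 FPKM in senescent and young cells. With assembled rows NEAT1, at 128 FPKM, stood above HNRNPK and SFPQ in senescent whole cells. With 1 library per group, no spread exists against which neighbours in this order could be told apart. The order also sets transcript models of unlike length side by side. NONO had 9.70 times the SFPQ FPKM in senescent mitoplasts, 13.0 times in young mitoplasts, 20.6 times in senescent whole cells and 4.65 times in young whole cells. The 20.6 rests on a library in which SFPQ-201 is listed at 0; with assembled rows it was 13.0, and 8.16 in young mitoplasts.

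Other proteins reported in paraspeckles were counted as a list of 36, of which 35 are in the files. In senescent against young mitoplasts, 3 of 33 tested were higher and 22 lower (median −1.46). Of all genes 21.9% were higher and 57.7% lower, and their median was −1.27. The list split was 8 and 9 with an equal sum, where 37.1% of all genes were higher and 42.0% lower. With the median of ratios it was 6 and 17, where those shares were 29.6% and 49.3%. In whole cells 3 of 33 were higher and 11 lower (median −0.78). Of all genes 17.3% were higher and 21.2% lower, and their median was −0.13. Both scalings gave 4 higher and 7 lower in the list, with medians of −0.52 (equal sum) and −0.60 (median of ratios). Over all genes 21.5% were higher and 17.0% lower with an equal sum, and 18.7% and 17.3% with the median of ratios. Between senescent fractions 7 were higher and 16 lower of 33 (median −0.998), where 18.6% of all genes were higher and 64.7% lower. The split was 8 and 14 with an equal sum (median −0.45) and 8 and 10 with the median of ratios (0.12). Over all genes those scalings gave 22.0% and 60.5%, and 27.6% and 52.2%. Between young fractions 9 were higher and 8 lower of 34 (median 0.14), where 23.1% of all genes were higher and 40.1% lower. The young split was 6 and 14 with an equal sum (median −0.39) and 11 and 7 with the median of ratios (0.57). Over all genes the scalings gave 16.0% and 51.1%, and 29.4% and 32.5%. By FPKM summed over the 4 libraries CPSF6 and MATR3 came first, though HNRNPA1 was above both in young mitoplasts at 718 FPKM. CPSF6, a subunit of the cleavage factor that sets poly(A) sites, was at 221 FPKM in senescent mitoplasts, 608 FPKM in young mitoplasts, 512 FPKM in senescent whole cells and 966 FPKM in young whole cells. MATR3, a nuclear matrix protein, was at 262, 203, 412 and 811 FPKM in those libraries. HNRNPA1, a splicing repressor, was lower in senescent than in young whole cells at 61.5 against 292 FPKM, and HNRNPM at 169 against 431 FPKM.

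The speckle proteins and MALAT1 partners, a list of 27, held 0 higher and 8 lower of 24 tested in senescent against young whole cells, with a median of −0.46, where 17.3% of all genes were higher and 21.2% lower and their median was −0.13. In mitoplasts 3 were higher and 18 lower of 26 (median −1.65), where 21.9% of all genes were higher and 57.7% lower. The list split was 6 and 10 with an equal sum, where the all-gene shares were 37.1% and 42.0%. With the median of ratios it was 5 and 11, where the shares were 29.6% and 49.3%. SRSF1, a splicing factor of speckles, was at 91.8 FPKM in senescent mitoplasts, 352 FPKM in young mitoplasts, 121 FPKM in senescent whole cells and 478 FPKM in young whole cells. SF3A1, of the U2 particle, had 63.1 FPKM in senescent and 113 FPKM in young whole cells, and TRA2A, a splicing activator, 89.0 and 115 FPKM. DYRK1A, a kinase of splicing factors, was at 324 and 478 FPKM there, and at 0.354 FPKM in senescent and 1.43 FPKM in young mitoplasts. Between fractions, 4 of 26 speckle genes were higher and 14 lower in senescent cells, where 18.6% of all genes were higher and 64.7% lower. The senescent split was 6 and 14 with an equal sum and 7 and 13 with the median of ratios. Over all genes those scalings gave 22.0% and 60.5%, and 27.6% and 52.2%. In young cells 2 were higher and 10 lower, where 23.1% of all genes were higher and 40.1% lower. The young split was 2 and 18 with an equal sum, where 16.0% of all genes were higher and 51.1% lower. With the median of ratios it was 3 and 9, where those shares were 29.4% and 32.5%.

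Of 19 further long noncoding RNAs, 18 are in the files. Between fractions, 5 were higher in mitoplasts and 11 lower of 17 tested in senescent cells. Of all genes 18.6% were higher and 64.7% lower. The list median was −1.45 against −1.48 over all genes. Its split was 5 and 8 under both scalings, with medians of −0.95 (equal sum) and −0.37 (median of ratios). Over all genes those scalings gave 22.0% higher and 60.5% lower, and 27.6% and 52.2%. In young cells 2 were higher and 10 lower of 15 (median −1.59). Of all genes 23.1% were higher and 40.1% lower, and their median was −0.46. The young split was 2 and 11 with an equal sum and 3 and 8 with the median of ratios. Over all genes those scalings gave 16.0% and 51.1%, and 29.4% and 32.5%. In senescent against young mitoplasts 5 were higher and 7 lower of 16, where 21.9% of all genes were higher and 57.7% lower. The median was −0.81, against −1.27 over all genes. With an equal sum it was 0.66 (7 higher, 4 lower), where 37.1% of all genes were higher and 42.0% lower. With the median of ratios it was 0.03 (6 higher, 5 lower), where 29.6% of all genes were higher and 49.3% lower. In whole cells 2 were higher and 5 lower of 15, where 17.3% of all genes were higher and 21.2% lower. PVT1, a host of microRNAs beside MYC, was at 115 FPKM in senescent mitoplasts, 65.8 FPKM in young mitoplasts, 1490.4 FPKM in senescent whole cells and 2103 FPKM in young whole cells. SNHG14, which hosts small nucleolar RNAs, was at 79.8, 85.5, 422 and 271 FPKM in those libraries. GAS5, another such host, was at 65.1 FPKM in senescent and 246 FPKM in young whole cells, and JPX, an activator of X inactivation, at 213 and 299 FPKM.

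The genes most like MALAT1 over the 4 libraries were found by the Euclidean distance of log2(FPKM + 1), centred per gene, among 3174 genes at 10 FPKM or more in both whole cell libraries and above 0 in all 4. They were SDC2, SCAMP2, SLC3A2, PALS1 and PTPRM, at distances from 0.31 to 0.45. SDC2, a cell surface proteoglycan, was at 17.6 FPKM in senescent mitoplasts, 2.54 FPKM in young mitoplasts, 112 FPKM in senescent whole cells and 49.8 FPKM in young whole cells. For NEAT1 the nearest were GET1, DNAJC3, FGF5, LINC02614 and OSTC, at distances from 0.11 to 0.38, but with assembled rows they were BTRC, CTNND1, KPNA4, MCTP2 and RIPOR1. The distances rest on 4 libraries and are a description.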

How the data were processed

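RNA of 4 WI-38 samples was sequenced, 1 library per group; groups came from the sample titles. The authors deposited FPKM per transcript, 1 table per library, over a merged set of 393483 transcripts. TopHat2 2.0.14, Cufflinks 2.2.1, Cuffdiff and the build hg19 appear, without their roles, per the submitters' processing notes. Annotation release, strand setting and depth: not given in the sources used here. Without strand, reads of overlapping antisense genes cannot be told apart. Identifiers were mapped through GENCODE 29 (GRCh38, used for names, types, lengths and sequences) and a table of gene symbols; 94.1% of 185591 Ensembl transcripts had a symbol. In 199 rows, 1 of them a member's, the Ensembl name differed between libraries, and each library's own name was used. A row with an Ensembl name in only some libraries kept that name in the others. MALAT1-201, named as assembled in both mitoplast libraries, was so counted, at 13.6% of MALAT1 in senescent and 28.5% in young mitoplasts. Gene values are sums of Ensembl rows; ratios use a pseudocount of 1 FPKM over genes at 1 FPKM or more in a library of the pair, with Python 3.11.15, pandas 2.3.3 and numpy 2.4.6. The code was tested on simulated data. No test between groups is possible with 1 library per group, so no p-values are given. Named are the 7 members, up to 4 genes per list by summed FPKM, and the 5 nearest patterns of MALAT1 and NEAT1; ZMYM5, HNRNPKP3, MIR612, RBM14-RBM4 and RBM4 were named after their values were seen. Members and lists were chosen with earlier results of these data known. TAF15 and TALAM1 are not analysed here.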

Additional observations from a re-analysis of the deposited data

Results flagged for a closer look

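NONO stood on opposite sides of 0 between fractions: the mitoplast over whole cell log2 ratio was −1.29 in senescent cells and 0.53 in young cells, where it was −0.14 with libraries scaled to an equal sum of named FPKM and 1.01 with the median of ratios. HNRNPK did the same, at −1.19 in senescent cells and 0.36 in young cells, where it was −0.30 with an equal sum and 0.84 with the median of ratios. In senescent cells the median of ratios gave −0.14 for NONO and −0.05 for HNRNPK. Each ratio is 1 library against 1, so neither difference was tested. An assembled transcript of the NEAT1 locus, outside the gene sums, was at 14.7 FPKM in senescent mitoplasts, where the locus is shared with MIR612, and at 0.715 FPKM in young mitoplasts, while it was listed at 0 in both whole cell libraries. Counted as NEAT1, it would put senescent mitoplasts above the young mitoplast sum of 3.38 FPKM.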

How the results depend on the processing

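No paired analysis was possible because each group is 1 library, and no replicate could be left out. Depth is unknown, so no counting error can be given. A pseudocount of 0.1 and no filter kept every count of members. A filter at 10 FPKM left NEAT1 out of the mitoplast comparison and PSPC1 out of the young fractions, so that the members lower numbered 3 and 2 there in place of 4 and 3. Of 6 members tested, 3 were higher in senescent whole cells under both scalings. Of all genes, 21.5% were higher there with an equal sum and 18.7% with the median of ratios. With coding transcripts alone 0 members were higher and 2 lower. In mitoplasts 2 members were higher in senescent cells with assembled rows. PSPC1 enters there because 12.5 FPKM of assembled rows in young mitoplasts was given to neither PSPC1 nor ZMYM5. With an equal sum 1 of 5 members was lower in senescent mitoplasts, where 42.0% of all genes were lower. Between young fractions 1 member was higher in mitoplasts with the median of ratios or with transcripts of 600 nt or more. The median of ratios put 29.4% of all genes higher there. Between senescent fractions 1 was higher with transcripts of 600 nt or more or with coding ones alone. The coding call is SFPQ, at 3.11, whose only coding row, SFPQ-201, is missing from the senescent whole cell transcript set. Under both scalings 3 were lower, where 60.5% (equal sum) and 52.2% (median of ratios) of all genes were lower. MALAT1 in whole cells was 1.14 with an equal sum and 1.05 with the median of ratios, and NEAT1 was 1.16, 1.05 and, with assembled rows, 1.15. MALAT1 between fractions reversed to 6.13 in senescent and 4.72 in young cells with transcripts of 600 nt or more, where the 480 nt row is left out. PSPC1 in whole cells reversed to −0.45 with assembled rows, which add more FPKM to young cells. The senescent minus young difference between fractions was −0.59 for NONO with an equal sum. For SFPQ it was 1.96 with an equal sum, 1.39 with the median of ratios, −0.57 with assembled rows and 3.94 with coding transcripts. The difference of 3.94 rests on SFPQ-201 being missing from the senescent whole cell transcript set and so listed at 0 there. For PSPC1 it was −1.03 as deposited and −0.18 with coding transcripts; the value of 3.37 with assembled rows, of the opposite sign, rests on the same 12.5 FPKM being withheld and gives no direction. For HNRNPK it was −0.33 with an equal sum, −0.89 with the median of ratios and −0.69 with coding transcripts. Where no construction is named, the cause was not tested. Counting the RBM14-RBM4 rows as RBM14, chosen after seeing the data, made RBM14 a call, so that 4 members in place of 3 were lower in young mitoplasts than in young whole cells; no other count of members moved.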
